A study of Mus musculus with 9 samples.

Results

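Cyp4 genes encode cytochrome P450 enzymes of the endoplasmic reticulum that hydroxylate fatty acids and related lipids. In the colonic mucosa of 9 mice, 10 of them were examined, namely Cyp4b1, Cyp4a10, Cyp4a14, Cyp4f13, Cyp4f14, Cyp4f15, Cyp4f16, Cyp4f18, Cyp4f40 and Cyp4v3. They were chosen by family membership, but with the measured difference between the genotypes already known, Cyp4b1 being among the genes with the largest difference, so the genotype values of these 10 genes are a description and carry no test. The table of expression values lists 54146 genes, of which 27 have a symbol that starts with Cyp4. Of the 10 genes, 6 passed the filter on low values (10 or more normalized counts in 4 or more mice), as did 14410 genes of the whole table. Cyp4a10, Cyp4a14, Cyp4f15 and Cyp4f18 did not, and their reads are described one by one.

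The omega-hydroxylases of this family oxidize the end of a fatty acid chain that lies farthest from the acid group. Alcohol and aldehyde dehydrogenases then turn the product into a dicarboxylic acid, which peroxisomes shorten by beta-oxidation. Mouse Cyp4a genes are classic targets of the lipid-sensing nuclear receptor PPARα, Cyp4f enzymes also act on leukotrienes and other arachidonic acid products, and CYP4B1 is best known for bioactivating the plant toxin 4-ipomeanol and for acting on short and medium-length chains.

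The study compared mucosa that looked normal in mice with 1 tumor-initiating mutation and in mice that also carried an engineered epimutation of p16 (Cdkn2a), in order to find genes that the epimutation regulates. All 9 mice were C57BL/6J, 15 wk old, and heterozygous for the Min mutation of Apc, which is carried in the germline and gives intestinal adenomas. The 5 control mice were ApcMin/+ (2 females and 3 males). The 4 others were ApcMin/+; p16cis/cis (3 females and 1 male), homozygous for a knocked-in cis-element that spreads DNA methylation over the p16 promoter. The cis-element is inherited and present in every cell, so its effect in epithelium cannot be told apart from its effect in other cells or tissues. No mice without the Apc mutation were in the comparison. The labels call the tissue colonic mucosa, and the methods name colonic crypts as the source of the RNA.

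Each mouse was 1 library and 1 replicate. Reads on genes ranged from 15745098 to 17885918 in ApcMin/+ mice and from 13523500 to 14900228 in ApcMin/+; p16cis/cis mice. Values are normalized counts, that is, reads on a gene divided by a size factor of the library. A floor of 3 reads was worth 2.85 to 4.79 normalized counts, for counting error only. Mitochondrially encoded genes took 8.74 to 15.6% of reads in ApcMin/+ mice and 19.3 to 29.8% in ApcMin/+; p16cis/cis mice, without overlap. All 7 colonocyte markers were detected in every group. Their summed normalized count was 139121 to 292520 in ApcMin/+ mice and 105034 to 133224 in ApcMin/+; p16cis/cis mice, also without overlap. Car1 was the largest of the 7 in every mouse, and its own values overlapped (64999.5 to 165058 against 40059.5 to 68015.5). Of the 7, 1 passed the test, the chloride and bicarbonate exchanger Slc26a3 (log2 fold change -1.23, Benjamini-Hochberg adjusted p = 0.00848 from limma). Log2 fold changes of the others ran from -0.81 (Car1) to 0.07 (Cdhr5). The 5 B and plasma cell markers summed to 34.3 to 803 against 26.6 to 140, with Jchain lower (log2 fold change -2.65, adjusted p = 0.0175 from limma), and the 6 fibroblast markers to 88.4 to 545 against 47.0 to 163, with Col3a1 lower (log2 fold change -2.92, adjusted p = 0.0414 from limma). Of the 10 other marker lists, goblet cells (Spink4) and hepatocytes (Ttr) had 1 gene each that passed as higher, and the rest had 0. The goblet marker Zg16 went the other way without passing (log2 fold change -0.89, adjusted p = 0.0775 from limma). Of the 4 hepatocyte markers only Ttr and Alb passed the filter, and Alb was nearly unchanged (log2 fold change 0.11, adjusted p = 0.780 from limma). Of the lists with 0, adipocytes had 0 markers past the filter, and neutrophils and urothelium and airway had 1 each. The part of these differences in the values of Cyp4 and pathway genes was not tested. In a bulk sample, fewer cells of a type and less RNA per cell cannot be told apart.

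In the GENCODE annotation of GRCm38, 3 of the genes lie together on chromosome 4. Cyp4b1 spans chr4:115624725-115647723 on the minus strand, Cyp4a10 spans chr4:115518264-115533649 on the plus strand, and Cyp4a14 spans chr4:115486200-115496142 on the minus strand. Cdkn2a, the gene of the p16 knock-in, is on the same chromosome at chr4:89274471-89294653, 26.3 Mb before Cyp4b1, so the epimutation and any other inherited difference in linked DNA cannot be told apart here. A second cluster on chromosome 17 holds Cyp4f16 (chr17:32536558-32551798, plus strand), Cyp4f40 (chr17:32658900-32676914, plus strand), Cyp4f15 (chr17:32685627-32703352, plus strand), Cyp4f14 (chr17:32905070-32917342, minus strand) and Cyp4f13 (chr17:32924688-32947402, minus strand). Cyp4v3 (chr8:45304944-45333216, minus strand) and Cyp4f18 (chr8:71988482-72009626, minus strand) lie apart from each other on chromosome 8. All 10 genes are annotated as protein-coding.

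The DNA before the start of Cyp4b1 is shown because this gene had the largest fitted difference of the 6 genes that passed the filter, and matching stretches of Cyp4f promoters are shown because they hold a short motif in common. RefSeq (GRCm38.p6) had a promoter entry of 300 bases for 8 of the 10 genes, not for Cyp4a10 and Cyp4a14. The Cyp4b1 sequence holds the 250 bases before its annotated start, chr4:115647722-115647971 on the minus strand, with 3 CpG sites and a GC content of 51.6%. In the Cyp4f sequences, capitals mark ATTGG, which is the motif CCAAT read on the other strand, with up to 25 bases on each side and none past the annotated start. The motif begins 50 bases before the start of Cyp4f14 (chr17:32917377-32917431, minus strand), 76 before Cyp4f13 (chr17:32947408-32947462, minus strand), 23 before Cyp4f16 (chr17:32536509-32536556, plus strand), 78 before Cyp4f15 (chr17:32685556-32685610, plus strand) and 48 before Cyp4f18 (chr8:72009645-72009699, minus strand). For each gene 1 match is shown. Cyp4f18 has another ATTGG 113 bases before its start, and another of the 4 promoter entries of Cyp4f14 has CCAAT itself 24 bases before that entry's start.
Cyp4b1: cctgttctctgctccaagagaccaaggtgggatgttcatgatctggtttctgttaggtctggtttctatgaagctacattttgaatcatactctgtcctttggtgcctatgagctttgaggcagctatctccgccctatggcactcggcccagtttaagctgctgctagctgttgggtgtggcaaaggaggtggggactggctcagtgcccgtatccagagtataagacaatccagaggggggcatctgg
Cyp4f14: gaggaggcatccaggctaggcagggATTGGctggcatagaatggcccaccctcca
Cyp4f13: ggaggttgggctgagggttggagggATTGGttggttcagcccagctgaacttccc
Cyp4f16: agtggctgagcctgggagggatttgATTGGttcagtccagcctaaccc
Cyp4f15: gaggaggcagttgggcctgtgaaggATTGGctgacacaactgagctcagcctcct
Cyp4f18: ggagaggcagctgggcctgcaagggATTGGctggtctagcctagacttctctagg

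Searched on both strands, CCAAT was found in the promoter entries of 5 of the 8 genes with one (Cyp4f13, Cyp4f14, Cyp4f15, Cyp4f16 and Cyp4f18) and in 37.4% of the 32851 promoters of the table. It was not found in the entries of Cyp4b1, Cyp4f40 and Cyp4v3. The other letters searched were TATAAA (13.6% of promoters), the nuclear receptor core site AGGTCA (16.3%), and the direct repeat AGGTCANAGGTCA (0.0396%), whose matches overlap those of the core site. None of these 3 was found in the entries of the 8 genes, Cyp4b1 included. With matches in 0.0396% of promoters, the repeat was unlikely to appear in any 8 genes, so nothing is read from its absence. Cyp4a10 and Cyp4a14 had no entry to search. A match is a match of letters, and the windows do not reach farther DNA.

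Cyp4b1 (ENSMUSG00000028713.17) had the largest fitted difference of the 6 genes that passed the filter. In ApcMin/+ mice its normalized counts were 825, 1036, 2176, 2715 and 522 in replicates 1 to 5. In ApcMin/+; p16cis/cis mice they were 148, 150, 82.6 and 81.5 in replicates 1 to 4. The groups did not overlap, since the lowest ApcMin/+ mouse was 3.48-fold above the highest ApcMin/+; p16cis/cis mouse. The means were 1455 ± 942 (SD, n = 5) and 115 ± 38.6 (SD, n = 4), a 12.6-fold difference, and the log2 fold change on log2(normalized count + 1) was -3.45 (standard error 0.42). Within ApcMin/+ mice the highest was 5.20-fold the lowest, against 1.84-fold within ApcMin/+; p16cis/cis mice. The largest values were those of males 3 and 4, and male 4 also had the largest sum of colonocyte markers (292520, against 139121 to 162081 in the other ApcMin/+ mice).

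The microsomal fatty acid omega-hydroxylase Cyp4a10 (ENSMUSG00000066072.13) had 378 reads in all, every one of them in the 3 ApcMin/+ males. Its normalized counts there were 36.1 in replicate 2, 187 in replicate 3 and 188 in replicate 4. Both ApcMin/+ females and all 4 ApcMin/+; p16cis/cis mice, the 1 male included, were at 0. Against the floor of 3 reads in each library, the ApcMin/+ mean was at least 18.5-fold higher than that of ApcMin/+; p16cis/cis mice, and the 3 males were on average at least 36.2-fold higher than the male with the knock-in. The lowest of these 3 males was at least 9.54-fold above that floor. Fitted without the filter on low values, the log2 fold change of Cyp4a10 by genotype was -4.07 in limma (standard error 1.38). In DESeq2 it was -8.23 (standard error 3.23), and neither passed an adjusted p of 0.05. Cyp4a14 (ENSMUSG00000028715.2), a related fatty acid hydroxylase, had 1 read, in ApcMin/+ replicate 3. Of the 50-base words in Cyp4a10 transcripts, 29.8% also occur in transcripts of other genes, Cyp4a32 with 24.5% and Cyp4a31 with 15%, so assignment of its reads within the Cyp4a cluster is uncertain. Cyp4a32 had 1 read in all mice and Cyp4a31 had 0.

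Cyp4f14 (ENSMUSG00000024292.14), a leukotriene B4 omega-hydroxylase, was the most abundant member. Its normalized counts were 3322, 3015, 3469, 3989 and 2591 in ApcMin/+ replicates 1 to 5, and 965, 1386, 2562 and 1529 in ApcMin/+; p16cis/cis replicates 1 to 4. The groups did not overlap, but the lowest ApcMin/+ mouse (2591) and the highest ApcMin/+; p16cis/cis mouse (2562), both females, were nearly equal. Means were 3277 ± 521 (SD, n = 5) and 1610 ± 678 (SD, n = 4), a 2.03-fold difference, and the fitted log2 difference was -1.10 (standard error 0.23). Its spread ran the other way from that of Cyp4b1, with the highest mouse 2.66-fold the lowest in ApcMin/+; p16cis/cis mice and 1.54-fold in ApcMin/+ mice.

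Cyp4f16 and Cyp4f40, less studied members of the same subfamily, had small differences in the same direction. Cyp4f16 had normalized counts of 1001, 972, 1383, 1412 and 961 in ApcMin/+ mice, and of 750, 858, 796 and 923 in ApcMin/+; p16cis/cis mice. Those groups did not overlap, and the 2 highest values were again those of ApcMin/+ males 3 and 4. The log2 fold change of Cyp4f16 was -0.44 (standard error 0.14). For Cyp4f40 the values were 1834, 1866, 1727, 1767 and 1428 in ApcMin/+ mice and 1469, 1357, 1204 and 1109 in ApcMin/+; p16cis/cis mice. Only ApcMin/+ replicate 5 and ApcMin/+; p16cis/cis replicate 1 crossed, and the log2 fold change of Cyp4f40 was -0.43 (standard error 0.11). Cyp4f16 transcripts share 17.4% of their 50-base words with other genes, chiefly Cyp4f37, which had 7 reads in all mice.

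For Cyp4f13 and Cyp4v3 the difference was within the spread of the mice. Cyp4f13 had normalized counts of 1145, 1066, 1119, 1585 and 1009 in ApcMin/+ mice and of 1251, 1372, 1082 and 1598 in ApcMin/+; p16cis/cis mice. The groups overlapped almost fully, and its log2 fold change of 0.17 (standard error 0.15) was the only positive one of the 6 genes that passed the filter. Cyp4v3, the mouse counterpart of the human gene CYP4V2 that is mutated in Bietti crystalline dystrophy of the retina, had 285, 217, 265, 408 and 255 in ApcMin/+ mice and 314, 236, 201 and 186 in ApcMin/+; p16cis/cis mice. These ranges overlapped too, and the log2 fold change was -0.28 (standard error 0.20). Part of the Cyp4v3 sequence (7.02% of its 50-base words) also lies in Gm45753.

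Cyp4f15 and Cyp4f18 were near the floor. Cyp4f15 had 20 reads in all mice, with normalized counts of 1.12 to 2.54 in ApcMin/+ mice and 0 to 7.58 in ApcMin/+; p16cis/cis mice. Cyp4f18, a leukotriene B4 hydroxylase of mouse neutrophils and other leukocytes, had 57 reads, with 0 to 25 in ApcMin/+ mice and 1.57 to 4.51 in ApcMin/+; p16cis/cis mice. The genotypes overlapped for both genes. For Cyp4f18 the ApcMin/+ mice had 6, 9, 13, 0 and 22 reads and the ApcMin/+; p16cis/cis mice 2, 1, 3 and 1, so all 4 of the latter were at or below the floor of 3 reads. Among 6 neutrophil markers in the table, the defining genes S100a8, S100a9, Csf3r and Cxcr2 stayed at or below 36.1, and the sum of the 6 was 463 to 1045 in ApcMin/+ mice and 362 to 1657 in ApcMin/+; p16cis/cis mice, nearly all of it Ly6g.

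**Figure D1:**
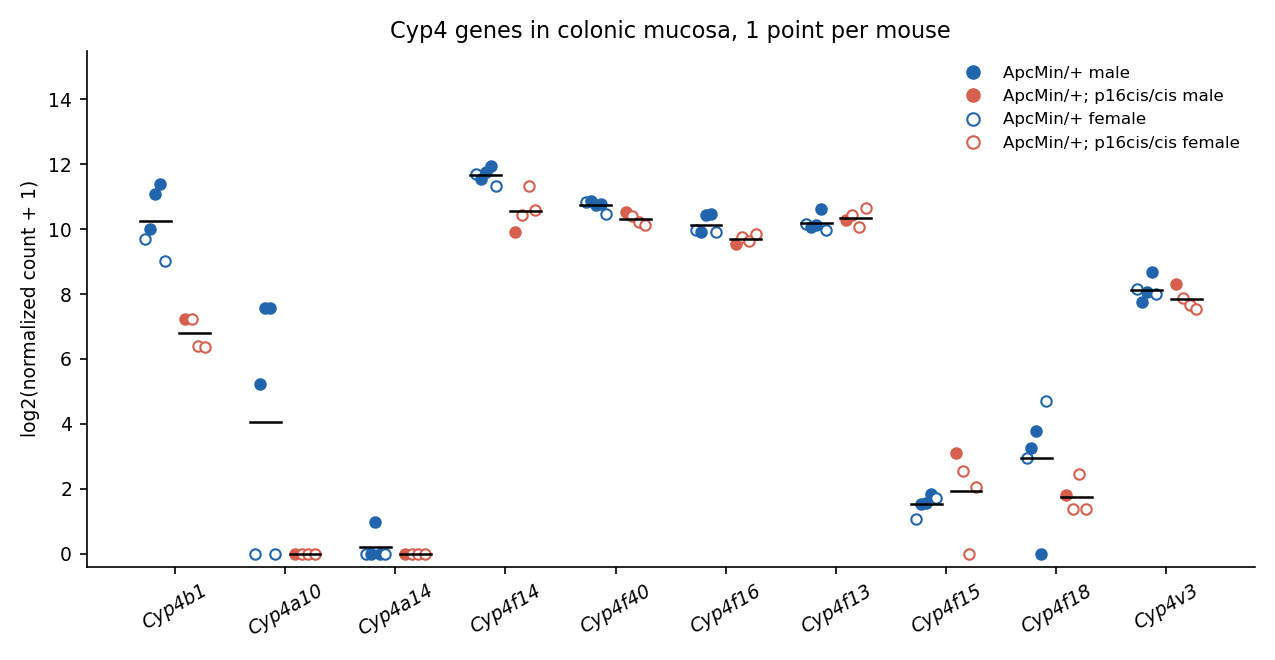
Log2(normalized count + 1) of each of the 10 Cyp4 genes, with 1 point per mouse (blue ApcMin/+, orange ApcMin/+; p16cis/cis, filled male, open female) and a line at the mean of each genotype. Cyp4b1 and Cyp4f14 sit lower in all 4 ApcMin/+; p16cis/cis mice, Cyp4a10 is above 0 in 3 ApcMin/+ males only, and Cyp4f13 and Cyp4v3 overlap.

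Across the 6 genes that passed the filter, 5 had a lower mean in ApcMin/+; p16cis/cis mice and 1 a higher mean, and their median log2 fold change was -0.43, beside a median of -0.00 over all 14410 genes. The call rule was a Benjamini-Hochberg adjusted p under 0.05 from limma and a fold change over 2. Under it 2 of the 6 were called lower (Cyp4b1 and Cyp4f14) and 0 higher, where 1.64% of all genes were called lower and 1.83% higher. Without the fold limit 3 of the 6 were lower (Cyp4f40 joining them) and 0 higher, beside 8.75% and 8.14% of all genes. In 3 of the 6 (Cyp4b1, Cyp4f14 and Cyp4f16) every ApcMin/+; p16cis/cis mouse was below every ApcMin/+ mouse, and in 0 of the 6 above, where 8.95% and 7.24% of all genes separated in this way. Without ApcMin/+; p16cis/cis replicate 1, the lone male of its genotype, 1 of the 6 was called, Cyp4f14 then having a log2 fold change of -0.88. Because the genes were chosen with this contrast known, nothing is read from these counts.

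The genotype difference was fitted again with sex as a covariate and in the 5 females alone, because the genotypes were unbalanced in sex. Cyp4b1 had a log2 fold change of -3.05 (standard error 0.33) with the covariate and -2.70 (standard error 0.32) in females, and met the call rule both times. For Cyp4f14 the values were -1.16 (standard error 0.25) and -0.74 (standard error 0.25), and it no longer met the rule in females. The log2 fold changes of the other 4 genes in females were -0.19 for Cyp4f16, -0.41 for Cyp4f40, -0.38 for Cyp4v3 and 0.31 for Cyp4f13. These refits reuse the same mice and genes chosen with this contrast known, so meeting the rule is a description and no test.

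**Figure D2:**
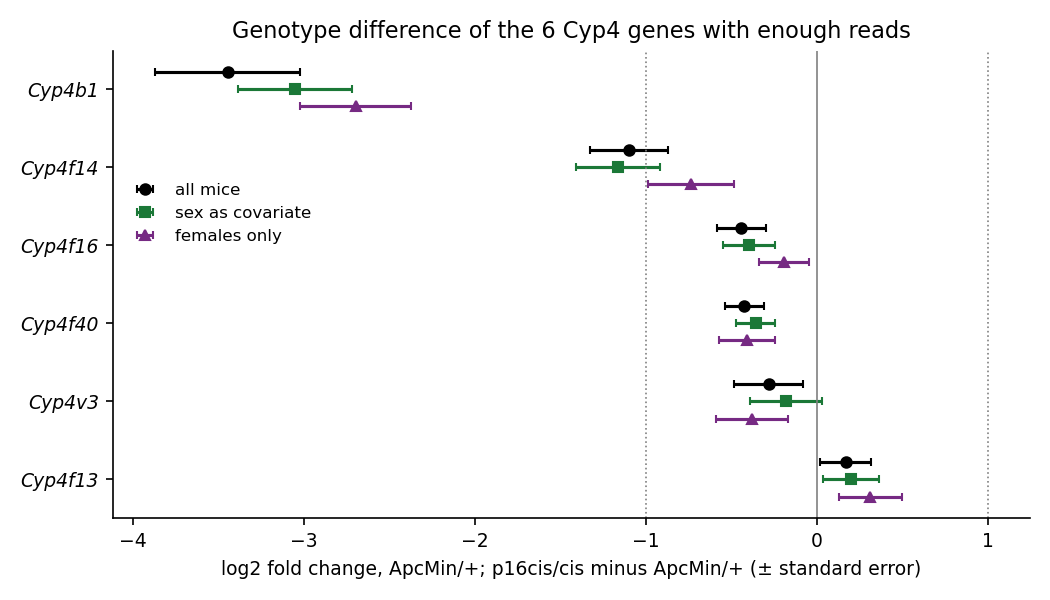
Log2 fold change (ApcMin/+; p16cis/cis minus ApcMin/+, horizontal axis, bars are standard errors) of the 6 Cyp4 genes that passed the filter, in all 9 mice, with sex as a covariate, and in the 5 females. Dotted lines mark a 2-fold difference; Cyp4b1 stays between -3.45 and -2.70, and Cyp4f14 moves from -1.10 to -0.74 in females.

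Sex was not used in choosing the genes, and was tested in the model with genotype and sex. Cyp4b1 was higher in males in the mean of ApcMin/+ mice, 1976 ± 857 (SD, n = 3) against 673 ± 214 (SD, n = 2) in females, a 2.93-fold difference without overlap. Among ApcMin/+; p16cis/cis mice the lone male had 148 and the females 105 ± 39.2 (SD, n = 3), so there the male lay within the female range. The male minus female difference of Cyp4b1 was 1.12 on the log2 scale (standard error 0.33, unadjusted p = 0.00585), and it did not pass adjustment over all genes (Benjamini-Hochberg adjusted p = 0.886 from limma). The other 5 genes had log2 sex differences from -0.18 (Cyp4f14) to 0.28 (Cyp4v3), with adjusted p-values of 0.992. Hence 0 of the 6 passed and 1 had an unadjusted p under 0.05, where 7 of all genes (0.0486%) passed and 631 had an unadjusted p under 0.05. DESeq2 and edgeR on the recovered reads also called 0 of the 6, with an adjusted p for Cyp4b1 of 0.0543 in DESeq2.

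Cyp4a10 could be tested for sex only without the filter on low values. Its log2 difference was then 4.17 (standard error 1.06, unadjusted p = 0.0013), which did not pass adjustment either (adjusted p = 0.730 from limma). All 5 females and 1 of the 4 males were at 0.

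Whether the genotype difference itself depended on sex was asked with an interaction term, with 1 male in the ApcMin/+; p16cis/cis group, whose spread was assumed to be that of the other mice. No Cyp4 gene passed (0 of 6), and neither did any other gene (0.0% of 14410), while 1 of the 6 and 979 of all genes had an unadjusted p under 0.05. The 1 was Cyp4f14, with an interaction of -1.11 on the log2 scale (standard error 0.40, unadjusted p = 0.0199, adjusted p = 0.722 from limma). Its lone male with the knock-in had the lowest value of all mice, 965, while the 3 females with it had 1826 ± 642 (SD, n = 3). For Cyp4b1 the ratio of ApcMin/+ to ApcMin/+; p16cis/cis means was 6.43 in females and 13.4 in males, and the interaction was -0.92 (standard error 0.66, adjusted p = 0.758 from limma). edgeR also called 0 of the 6, and 0 of all genes.

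**Figure D3:**
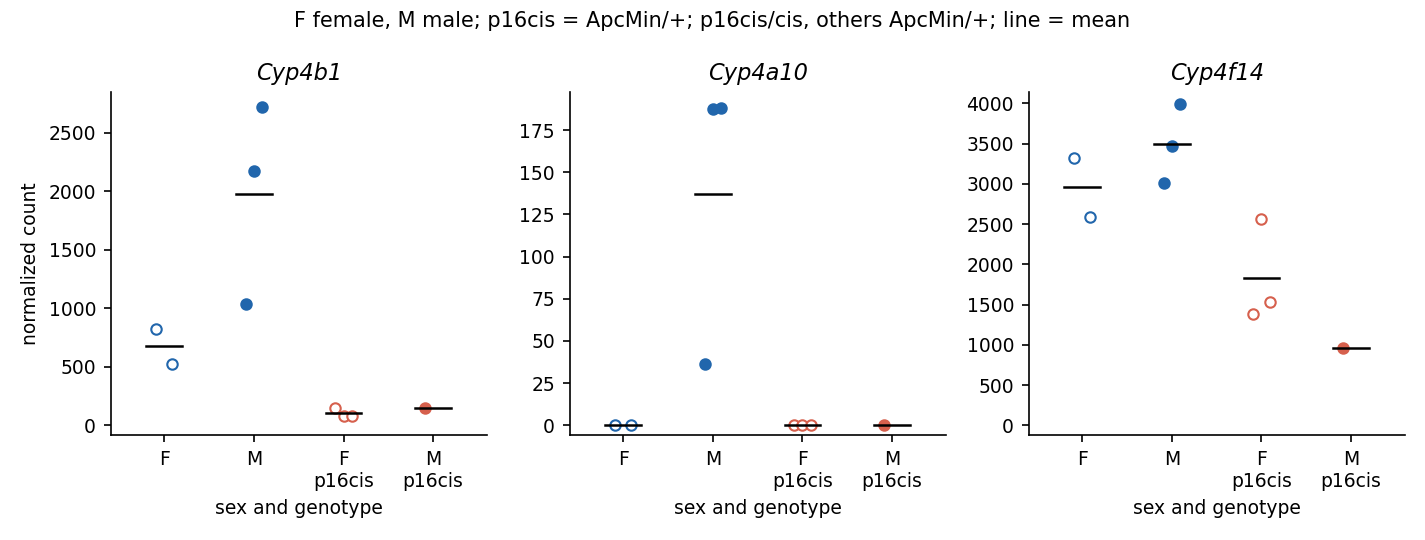
Normalized counts of Cyp4b1, Cyp4a10 and Cyp4f14 on linear axes, 1 point per mouse, by sex and genotype, with a line at each mean. ApcMin/+ males reach 2715 for Cyp4b1 and 188 for Cyp4a10, whereas the 1 male with the knock-in has 148 and 0.

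Levels were compared between genes per kilobase of annotated exon. In ApcMin/+ mice the order of the mean normalized counts per kilobase was Cyp4f14 (1355 ± 215, SD, n = 5), Cyp4f40 (692 ± 70.0), Cyp4b1 (645 ± 418), Cyp4f16 (373 ± 75.1), Cyp4f13 (267 ± 51.7), Cyp4v3 (75.1 ± 19.0) and Cyp4a10 (39.0 ± 46.2). Cyp4f40 and Cyp4b1 did not differ beyond their spread in that order, nor did Cyp4b1 and Cyp4f16, or Cyp4v3 and Cyp4a10. The spreads of Cyp4f16 and Cyp4f13 met as well, but Cyp4f16 was the higher of the pair in each ApcMin/+ mouse. In ApcMin/+; p16cis/cis mice Cyp4f14 again had the highest mean per kilobase (666 ± 280, SD, n = 4), followed by Cyp4f40 (516 ± 64.1), Cyp4f13 (299 ± 48.8), Cyp4f16 (271 ± 24.4), Cyp4v3 (61.6 ± 15.0) and Cyp4b1 (51.2 ± 17.1). Cyp4b1 thus had the third level per kilobase in one genotype and the sixth in the other, where it and Cyp4v3 lay within each other's spread, as did Cyp4f14 and Cyp4f40, and Cyp4f13 and Cyp4f16. These orders hold for the union of annotated exons as the length. With the longest annotated transcript instead, Cyp4f13 had 676 and Cyp4f16 had 511 in ApcMin/+ mice, so that Cyp4f13 stood above Cyp4f16. In ApcMin/+; p16cis/cis mice that length put Cyp4f13 first (757), before Cyp4f14 (725) and Cyp4f40 (581).

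Summed over the 10 genes, normalized counts ranged from 6795 to 12067 in ApcMin/+ mice (9168 ± 2054, SD, n = 5) and from 4907 to 5933 in ApcMin/+; p16cis/cis mice (5409 ± 420, SD, n = 4). Cyp4b1 made up 7.68 to 22.5% of that sum in ApcMin/+ mice (14.7% ± 6.68) and 1.39 to 3.01% in the mice with the knock-in (2.17% ± 0.85), without overlap. The 4 abundant Cyp4f genes (Cyp4f13, Cyp4f14, Cyp4f16 and Cyp4f40) made up 81.2% ± 7.22 and 93.3% ± 2.25. These shares are of reads, in which longer transcripts weigh more.

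**Figure D4:**
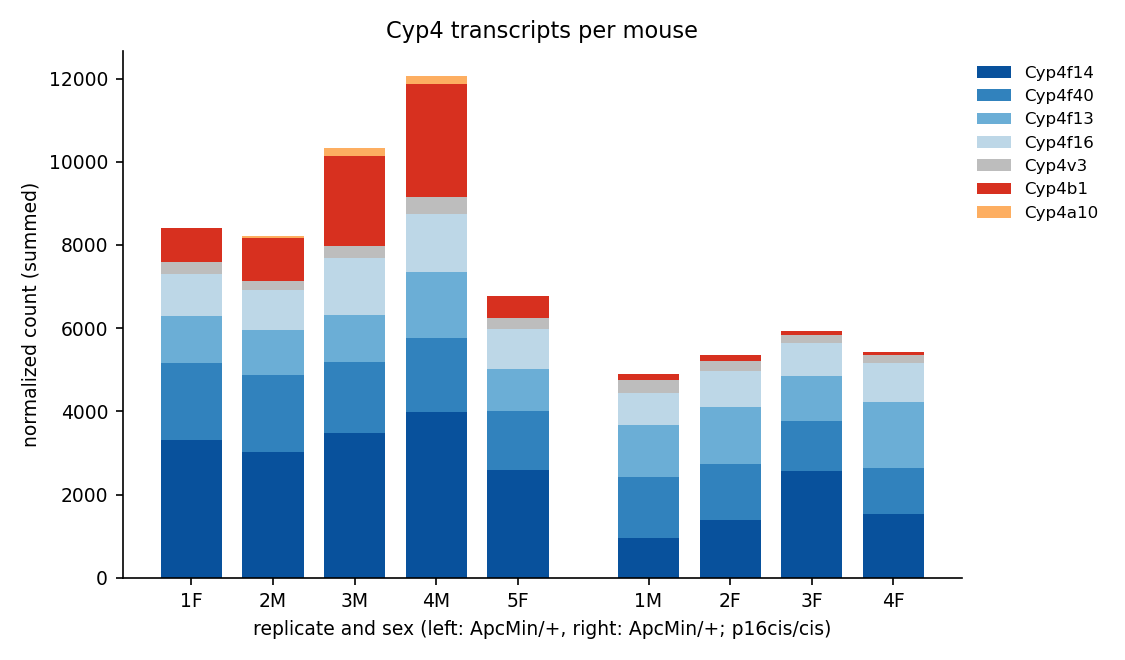
Normalized counts of 7 Cyp4 genes stacked for each mouse, from 0, with the replicate number and sex under each bar (ApcMin/+ left, ApcMin/+; p16cis/cis right). The Cyp4b1 part is 7.68 to 22.5% of the summed count of the family members in ApcMin/+ mice and at most 3.01% in the others, while Cyp4f14 is the largest part in most bars.

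The other 17 Cyp4 genes of the table added few reads. Cyp4f17 passed the filter with normalized counts of 39.4 ± 7.78 (SD, n = 5) and 44.3 ± 19.3 (SD, n = 4), a log2 fold change of 0.10 (standard error 0.30, adjusted p = 0.856 from limma), and so did the pseudogene Cyp4f41-ps with 68 reads in all mice. Cyp4x1 had 58 reads in all mice and Cyp4f39 had 50, both below the filter. The male-biased renal and hepatic genes Cyp4a12a and Cyp4a12b had 0 reads, as had Cyp4a31, Cyp4a29-ps1, Cyp4a30-ps and Cyp4b1-ps1, and the rest had 1 to 8 reads each. Cyp4b1 shares 8.26% of its 50-base words with its pseudogenes Cyp4b1-ps1 and Cyp4b1-ps2, which held 0 and 2 reads.

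Neighboring genes were counted as a description of the regions. Within 1 Mb of the chromosome 4 genes, 33 other genes passed the filter, of which 2 passed an adjusted p of 0.05 with a lower value, 6 with a higher value, and 0 met the call rule in either direction. Around the chromosome 17 genes 47 others passed, of which 1 was lower and 6 higher, and 1 met the call rule. That gene was Angptl4, a secreted inhibitor of lipoprotein lipase. Median log2 fold changes of the neighbors were 0.03 and 0.12. Of all genes tested, 8.75% passed an adjusted p of 0.05 as lower and 8.14% as higher. The call rule was met by 1.64% as lower and 1.83% as higher.

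The genes whose levels followed Cyp4b1 most closely were ranked by Pearson correlation over the 9 mice of log2(normalized count + 1), after the mean of each genotype was taken off, among 14409 genes. These were Acot1 (r = 0.98, Spearman's rho = 0.92), a cytosolic acyl-CoA thioesterase, Tmie (r = 0.98, rho = 0.95), Bphl (r = 0.97, rho = 0.95), a serine hydrolase, Surf1 (r = 0.97, rho = 0.98), an assembly factor of cytochrome c oxidase, and Retsat (r = 0.95, rho = 0.93), which saturates retinol. The values of a mouse share 1 library and 1 size factor, and ApcMin/+ replicates 3 and 4 lay farthest out in Cyp4b1. Without them r was 0.94 for Acot1 (rank 21), 0.93 for Tmie (rank 33), 0.95 for Bphl (rank 11), 0.90 for Surf1 (rank 75) and 0.84 for Retsat (rank 169). These genes were picked as the highest of 14409 correlations over 9 mice, so their r values are likely too high. Acot1 had normalized counts of 104, 113, 278, 376 and 81.7 in ApcMin/+ mice and of 152, 148, 82.6 and 97.1 in ApcMin/+; p16cis/cis mice. It was thus highest in the same 2 males, yet its genotypes overlapped (log2 fold change -0.45, standard error 0.42, adjusted p = 0.491 from limma). Among the other members r with Cyp4b1 was 0.74 for Cyp4f16, 0.64 for Cyp4v3, 0.58 for Cyp4f40, 0.54 for Cyp4f13 and 0.08 for Cyp4f14. Without the 2 males r was -0.27 for Cyp4f16, 0.46 for Cyp4v3, 0.94 for Cyp4f40, 0.10 for Cyp4f13 and -0.44 for Cyp4f14.

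The steps around omega-oxidation were read from 3 lists of genes put together with earlier results of these data known, which share no gene with each other. Among 26 partners of omega-oxidation, 24 passed the filter, 9 of these passed an adjusted p of 0.05 as lower and 2 as higher, and their median log2 fold change was -0.36, beside 8.75% lower and 8.14% higher among all genes. Peroxisomal enzymes were among those that fell. Acox2, the oxidase of branched chains and bile acid precursors, dropped from 85.6 ± 21.9 (SD) in the 5 controls to 23.8 ± 8.74 (SD) in the 4 others (log2 fold change -1.83, standard error 0.31, adjusted p = 0.00446 from limma). Acot4, a thioesterase that releases succinate from the shortened acids, fell by 1.05 on the log2 scale (standard error 0.19, adjusted p = 0.00656 from limma). In the other direction, Adh1, an alcohol dehydrogenase, rose from 21698 ± 6122 to 35842 ± 3424 (log2 fold change 0.76, standard error 0.19, adjusted p = 0.0215 from limma). Por, the reductase that hands electrons to all microsomal P450 enzymes and is named here after its value was seen, had a log2 fold change of -0.79 (standard error 0.27) and did not pass (adjusted p = 0.0663 from limma). Without ApcMin/+; p16cis/cis replicate 4 the list had 5 lower and 0 higher, without ApcMin/+ replicate 2 it had 0 higher and without replicate 3 it had 1, and in females alone 3 were lower and 0 higher. With sex as a covariate 6 were lower and 2 higher.

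Of 35 genes listed as PPARα targets or the receptor itself, 29 passed the filter, and their median log2 fold change was -0.65. Of these 29, 17 passed an adjusted p of 0.05 as lower and 0 as higher, beside 8.75% and 8.14% of all genes. Acaa1b, a peroxisomal thiolase, dropped from 326 ± 241 (SD) in the 5 controls to 24.7 ± 8.88 (SD) in the 4 others, Angptl4 from 317 ± 279 to 19.7 ± 6.43, and Creb3l3, a liver and gut transcription factor of lipid metabolism, from 516 ± 373 to 69.6 ± 23.1. Their log2 fold changes were -3.39 (standard error 0.52), -3.32 (standard error 0.70) and -2.63 (standard error 0.44), with adjusted p-values of 0.00321, 0.0104 and 0.00431 from limma. Ppara itself fell by 1.15 on the log2 scale (standard error 0.25, adjusted p = 0.0111 from limma). In single mice Ppara did not follow Cyp4b1 closely within genotypes (r = 0.23, rho = 0.35). The list was put together with results of these samples known, so its direction is no independent evidence. Without ApcMin/+ replicate 3, or without ApcMin/+; p16cis/cis replicate 2 or 4, 11 of the list were lower, and in females alone 4 were. With sex as a covariate 12 were lower. In the model with genotype and sex, male minus female log2 differences were 1.22 for Acaa1b, 1.81 for Angptl4, 0.67 for Creb3l3 and 0.28 for Ppara. None of these passed adjustment, and the part of sex in the drops above was not tested.

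Of 19 genes of leukotriene and HETE metabolism, 15 passed the filter, with a median log2 fold change of -0.22. Of these 15, 3 passed an adjusted p of 0.05 as lower and 2 as higher, beside 8.75% and 8.14% of all genes. Ggt1, a gamma-glutamyltransferase that converts leukotriene C4, dropped from 200 ± 88.8 (SD) in the 5 controls to 35.7 ± 12.0 (SD) in the 4 others (log2 fold change -2.41, standard error 0.33, adjusted p = 0.00213 from limma). Ephx2, the soluble epoxide hydrolase, and Cyp2j6, an epoxygenase of the P450 superfamily, fell by 0.85 and 0.49 on the log2 scale (standard errors 0.25 and 0.13, adjusted p = 0.0370 and 0.0250 from limma). Ltc4s, which makes leukotriene C4, rose by 1.13 (standard error 0.33, adjusted p = 0.0373 from limma), and Ephx1, the microsomal epoxide hydrolase, by 0.41 (standard error 0.11, adjusted p = 0.0266 from limma). Without ApcMin/+ replicate 3, or without ApcMin/+; p16cis/cis replicate 2 or 4, 1 of the list was lower. The higher count was 0 without ApcMin/+ replicate 2 or 3 or ApcMin/+; p16cis/cis replicate 3, and 1 without ApcMin/+; p16cis/cis replicate 1 or 2. With sex as a covariate 1 was lower and 0 were higher.

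**Figure D5:**
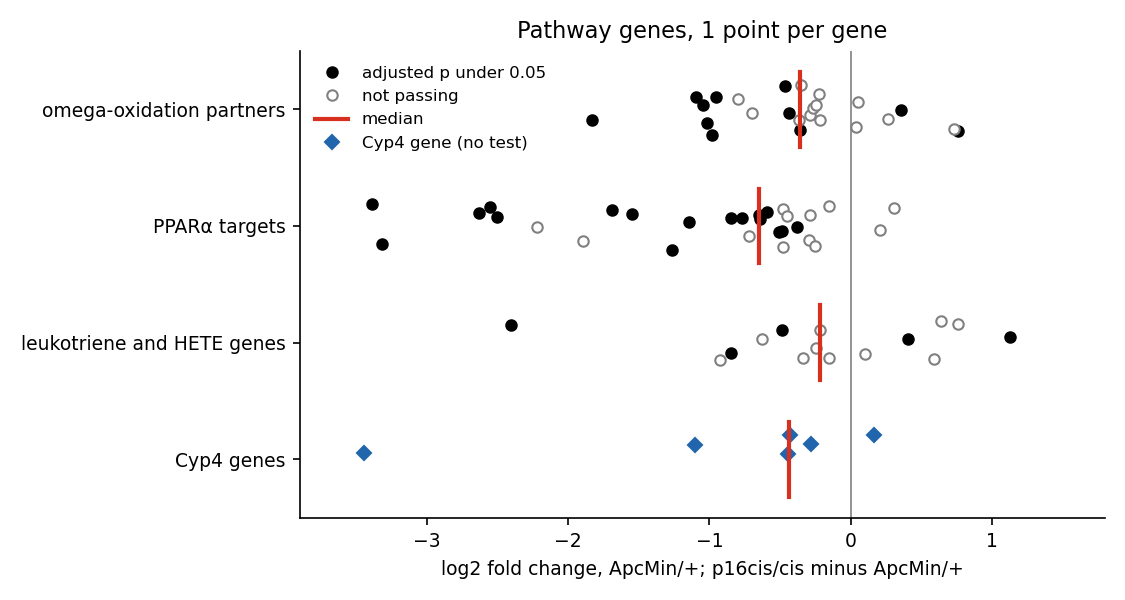
Log2 fold change (ApcMin/+; p16cis/cis minus ApcMin/+, horizontal axis) of each tested gene in the 3 lists and of the 6 Cyp4 genes, with 1 point per gene and a red line at each median. Filled circles passed an adjusted p of 0.05, open circles did not, and the medians are -0.36, -0.65, -0.22 and -0.43 from top to bottom.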

How the data were processed

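RNA from colonic mucosa of 9 mice was sequenced on the BGISEQ-500. The authors aligned reads with BOWTIE2, computed gene levels with RSEM and compared genotypes with DESeq2. The deposited signal values are normalized counts, that is, counts divided by a size factor per mouse. Genome build, annotation and tool versions were not given in the sources used here. GENCODE M21 (GRCm38) held 54079 of the 54146 identifiers, 52480 of them in the same version, among which were 6 of the 10 members. Coordinates and lengths came from that annotation, whose gene models may differ from those counted.

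Dividing each value by the value of 1 read gave whole reads for 100% of positive values (within 0.01 reads). Because the table holds normalized counts, limma 3.58.1 (R 4.3.3, trended variances) on log2(normalized count + 1) was the main test, over the 14410 genes that reached 10 in 4 or more mice. Its 1 term was genotype, to which the sex and interaction tests added theirs, and adjustment was by Benjamini-Hochberg over all genes tested. The alternatives were count tests on those reads (DESeq2 1.42.0, edgeR 4.0.16), other normalizations, filters and pseudocounts, sex as a covariate, females only, a replicate block and each mouse left out. The procedure was tested on simulated counts. Nothing says whether mice were litter mates. Counting without a stated strand setting leaves reads of overlapping genes unresolved.

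Named genes were all members, the other Cyp4 genes by level, up to 3 risers and 3 fallers past an adjusted p of 0.05 per list, Ppara, and the 5 genes most correlated with Cyp4b1. Marker genes were named beside results, and Por after its value was seen. Some genes that this rule names are not reported here. The members and all lists were chosen with earlier results of these data known. The labels number the mice 1 to 5 and 1 to 4 within genotypes. Same-numbered mice correlated at -0.18, 0.07, 0.05 and 0.14 in their deviations from the group means. So few correlations cannot show whether the numbers pair mice, since a weak shared effect could be missed.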

Additional observations from a re-analysis of the deposited data

Results flagged for a closer look

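In 22 sets of 4 or 5 mice (each member in each genotype where not all 0, the family sum and the Cyp4b1 share), 2 values lay far from the rest. Chance would give about 1.1 if the sets were independent and well above 0, which does not hold for all of them. Cyp4f13 in ApcMin/+ replicate 4 had a normalized count of 1585, against 1009 to 1145 in the other 4 mice. Cyp4a14 in ApcMin/+ replicate 3 had 0.976, which is 1 read, against 0 in the others. A lone value above 0 is always flagged by this rule.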

How the results depend on the processing

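In 19 alternatives the log2 fold change of Cyp4b1 stayed between -3.75 and -2.70 and met the call rule each time. That of Cyp4f14 stayed between -1.35 and -0.74 and met the rule in 16. The count of Cyp4 genes called lower, 2, was 1 with upper-quartile normalization, in females only and with Bonferroni adjustment. With single mice left out it was 1 to 2, being 1 without the lone ApcMin/+; p16cis/cis male. Cyp4f40 passed an adjusted p of 0.05 in 11 alternatives and Cyp4f16 in 6, while Cyp4v3 and Cyp4f13 passed in 0. Since the genes were chosen with this contrast known, these outcomes describe the same mice and are no test. No scaling moved the median of all genes by 0.1.

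In females only, 3 omega-oxidation partners were lower and 0 higher, 4 PPARα targets lower, and 1 leukotriene or HETE gene lower and 0 higher. With Bonferroni adjustment the counts were 1, 0, 0, 0 and 0 in the same order. With a fold change over 2 added they were 4, 0, 9, 1 and 1. With single mice left out they ranged from 5 to 12, 0 to 2, 11 to 18, 1 to 3 and 0 to 2. The lowest counts came without ApcMin/+ replicates 2 or 3 or ApcMin/+; p16cis/cis replicates 2, 3 or 4. With sex as a covariate, 1 leukotriene or HETE gene was lower and 0 higher, and without the filter on low values 0 were higher. The cause of these changes was not tested, beyond the fewer mice or the stricter rule itself.

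The sex difference of Cyp4f13 turned from 0.09 to -0.026 without ApcMin/+ replicate 4 (-0.026 to 0.20 over the mice left out), and that of Cyp4f14 from -0.18 to 0.24 in ApcMin/+ mice only, which is the same value as without ApcMin/+; p16cis/cis replicate 1 (-0.40 to 0.24 over the mice left out). The interaction could not be fitted without that mouse, the lone male of its genotype. Whether mice with the same number pair was not given. The block for replicate number left 2 Cyp4 genes called lower and 1 leukotriene or HETE gene higher. Its log2 fold changes were -3.75 for Cyp4b1, -1.18 for Cyp4f14, -0.50 for Cyp4f16 and -0.49 for Cyp4f40. They equal those without ApcMin/+ replicate 5, which has no same-numbered mouse in the other genotype. Adjusted p-values that DESeq2 left empty were kept empty. Cyp4a14, Cyp4f15 and Cyp4f18 were below the filter on low values. Cyp4f18 had a log2 fold change of -2.05 in DESeq2 and -1.18 in limma without the filter, and met the call rule in neither.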
